A study of Mus musculus with 2 samples.

Results

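The Notch receptors, ligands and direct targets examined here were 10 genes: the receptors Notch1, Notch2, Notch3 and Notch4, the ligands Jag1, Jag2, Dll1 and Dll4, and the target genes Hes1 and Hey1. They were chosen by name, as every probe other than control spots whose gene name in both array files was one of these symbols. This gave 14 probes of the 41174 on the array, and 10 of its 27745 gene names. Of the 14 probes, 13 carried an accession found in a RefSeq table of mouse genes, and for all 13 the table gave the same symbol.

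The samples were primary mouse embryonic fibroblasts (MEFs), connective tissue cells grown from embryos, of the C57BL/6J strain, and no treatment was given to either group. The fibroblasts labelled KO were LATS2-/- and those labelled WT were LATS2+/+ (some labels spell the gene LAT2). LATS2 is a kinase of the Hippo pathway, which restrains the transcriptional coactivators YAP and TAZ. Total RNA of both genotypes was labelled with the dyes Cy5 and Cy3 and hybridised together to 2 arrays, with the KO sample in Cy5 on one array (the Cy5-KO array) and in Cy3 on the other (the Cy3-KO array). No separate cultures, embryos or litters are named for them. The 2 arrays were therefore taken as 1 dye swap of 1 pair of RNAs, n = 1 replicate, and no p-value is given for any gene. The number of arrays limits the precision, and the spread between them covers hybridisation and dye error only.

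Notch receptors sit in the plasma membrane and bind ligands of the Jagged and Delta-like families on a neighbouring cell. Binding lets ADAM proteases and then γ-secretase cut the receptor, and the freed intracellular domain joins the DNA-binding protein RBPJ and Mastermind-like coactivators to switch on genes of the Hes and Hey families, which encode repressors. Notch3 is known from vascular smooth muscle cells and pericytes, and Notch4 and Dll4 from endothelium. Jag1 is expressed in many mesenchymal cells.

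The promoters of Notch1, Notch3 and Jag1 are shown because, with the background correction used here, these 3 genes had the largest differences between the RNAs. By the scanner software's own ratio Notch4, a gene near background, also differed by as much. They were taken from RefSeq on the GRCm38.p6 build, from 250 bases before to 50 bases after the annotated start, and are written 5′ to 3′ on the strand of the gene, all on the minus strand. The Notch1 promoter is chr2:26503773-26504072, that of Notch3 is chr17:32166841-32167140 and that of Jag1 is chr2:137116471-137116770. Capitals mark matches to GGAATG (the TEAD site) in Notch1 and to CACGCG (a HES and HEY site) in Jag1, on either strand.
Notch1: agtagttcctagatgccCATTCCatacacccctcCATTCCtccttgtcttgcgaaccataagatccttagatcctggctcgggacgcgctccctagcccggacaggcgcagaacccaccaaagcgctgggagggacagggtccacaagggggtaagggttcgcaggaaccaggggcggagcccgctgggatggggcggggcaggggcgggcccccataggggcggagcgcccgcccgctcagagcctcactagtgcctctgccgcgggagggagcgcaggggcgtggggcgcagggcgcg
Notch3: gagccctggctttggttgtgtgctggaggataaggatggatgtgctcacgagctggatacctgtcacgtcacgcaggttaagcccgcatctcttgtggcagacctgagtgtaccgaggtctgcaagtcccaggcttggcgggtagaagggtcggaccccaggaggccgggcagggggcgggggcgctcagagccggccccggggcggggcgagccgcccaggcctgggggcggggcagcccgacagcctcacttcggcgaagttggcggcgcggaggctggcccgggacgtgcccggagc
Jag1: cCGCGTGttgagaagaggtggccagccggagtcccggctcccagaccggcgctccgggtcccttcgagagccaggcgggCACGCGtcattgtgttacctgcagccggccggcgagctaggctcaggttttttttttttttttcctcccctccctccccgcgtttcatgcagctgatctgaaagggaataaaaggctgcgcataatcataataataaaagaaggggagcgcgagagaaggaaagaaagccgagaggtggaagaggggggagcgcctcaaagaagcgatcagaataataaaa

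In the Notch1 promoter the TEAD letters GGAATG occurred on the opposite strand 233 and 216 bases before the start. The same letters were found 227 bases before the start of Notch4 and in no other promoter of the family. They stood in 14.7% of all 32851 promoters of this length. CACGCG was present in Jag1, 249 and 171 bases before the start, in Notch2, 42 bases before it, in Dll4, 195 bases before it, in 1 of the promoters of Dll1, 68 bases before it, and in Jag2, and in 9.27% of all promoters. Neither TGGGAA, the core of the RBPJ site, nor CACGTG, another HES and HEY site, was found in a promoter of the family, against 25.6% and 7.15% of all promoters. The promoter of Notch3 held none of the 4 motifs, and none of the matches overlapped another. The table covered 8 of the 10 genes, and Hes1 and Hey1 were not among them. The promoters were 68.3% GC for Notch1, 70.0% for Notch3 and 55.7% for Jag1, where the median of all promoters was 52.67%. A match to such short letters is a description of the sequence and does not show binding.

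Facts of the arrays as a whole bear on every value. The median signal of all spots was 96.8 and 98.5 units in Cy5 and 60.1 and 58.2 in Cy3, over median backgrounds of 36 in Cy5 and of 33 and 30 in Cy3, and no spot was saturated. Over 22357 probes well above background in both RNAs, the SD of a log2 ratio between the arrays was 0.137. Of the 4 probes of Lats2, the targeted gene, on chromosome 14, 3 were higher in the KO-labelled RNA, with log2 ratios of 0.56, 0.56 and 0.63, and only the probe farthest from these was lower, at -0.35 (-0.18 on the Cy5-KO array and -0.51 on the Cy3-KO array). A probe outside the deleted part checks nothing, and which exons were deleted is not given in the sources used here. The study also examined Lats2 protein in Lats2 KO fibroblasts by western blotting, which was not analysed here. The direction of every ratio rests on the labels, and the samples are named throughout as the KO-labelled and the WT-labelled RNA. Each of the 12 fibroblast markers exceeded background clearly in 1 or both RNAs, although Vim did so in the WT-labelled RNA only. Of the endothelial markers, Pecam1, Cdh5, Kdr, Tek, Tie1, Emcn and Cldn5 did not exceed background clearly in either, while Egfl7 and Eng did so in both.

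All 4 receptors had lower values in the KO-labelled RNA, 1 of the 4 ligands was higher, and both target genes were slightly higher. The receptors' log2 ratios of KO over WT, for the brightest probe of each gene, were -1.07 for Notch3, -0.71 for Notch1, -0.39 for Notch2 and -0.12 for Notch4. Jag1 stood at 0.90, Hey1 at 0.37 and Hes1 at 0.17. Jag2, Dll1 and Dll4 did not stand clearly above background in either. In bulk RNA, fewer cells of a type and less RNA per cell cannot be told apart.

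**Figure D1:**
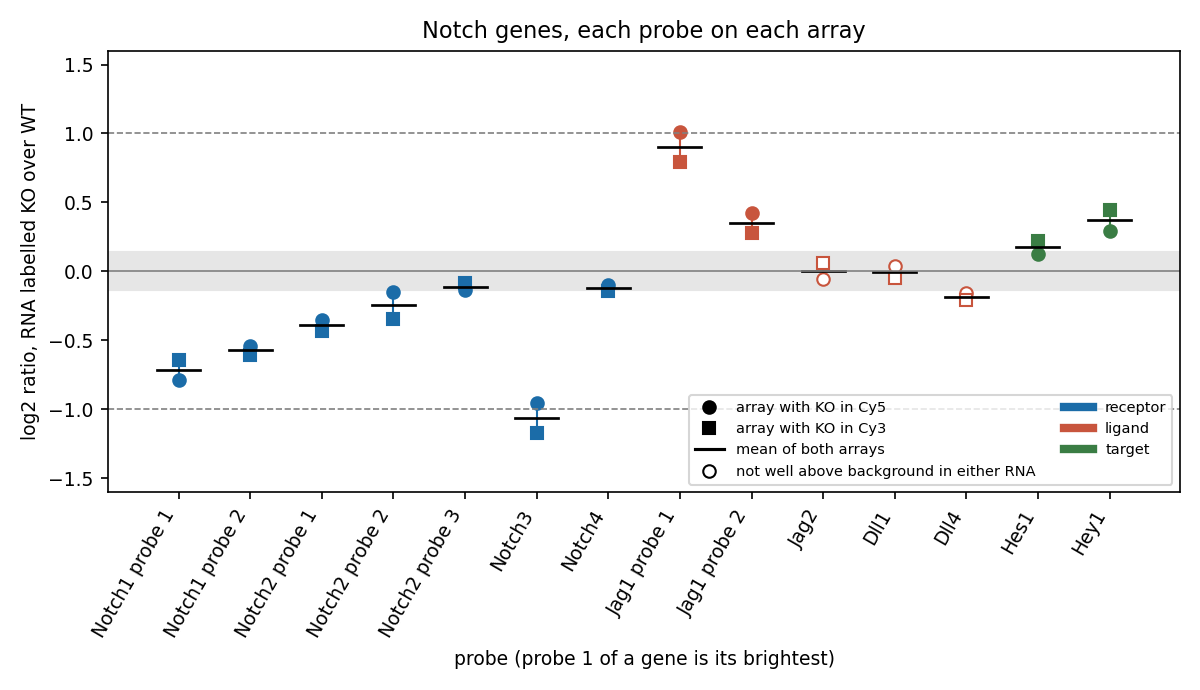
The log2 ratio of the KO-labelled over the WT-labelled RNA (y axis) is plotted for each of the 14 probes of the 10 Notch genes (x axis) on each array, with the mean of both arrays as a black line, dashed lines at 2-fold and a grey band of 1 SD between arrays (0.137). Every receptor probe lies below 0 on both arrays, both Jag1 probes, Hes1 and Hey1 lie above 0, and open symbols mark the 3 ligands that were not well above background.

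Notch3, a receptor known from vascular smooth muscle, had the lowest ratio of the family with the offset of 50 units added to the signals here, but not by the ratio of the scanner software, by which Notch1 and Notch4 were lower. Its probe lies on chromosome 17, mm8 positions 31849609 to 31849668, minus strand. The signal before background subtraction was 1153 units in the KO-labelled RNA and 2431 in the WT-labelled RNA when each carried Cy5, and 429 against 929 units when each carried Cy3. In both dyes the KO-labelled RNA was thus the dimmer one. The log2 ratio was -0.96 on the Cy5-KO array and -1.17 on the Cy3-KO array, a mean of -1.07 ± 0.15 (SD between arrays), or 47.8% of the WT level. Only the Cy3-KO array passed 2-fold. Among 14723 genes well above background in both RNAs, this ratio stood at percentile 2.75. The ratio of the scanner software, Feature Extraction, which subtracts background without an offset, was -1.15, close to the value here.

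Notch1, a receptor expressed in many tissues, had 2 probes that both gave a lower level in the KO-labelled RNA. The brighter lies on chromosome 2, mm8 positions 26281261 to 26281319, minus strand, and is spotted 10 times on each array. Its mean signal was 121 units in the KO-labelled RNA and 246 in the WT-labelled RNA in Cy5, and 70.5 against 127 in Cy3. The log2 ratio was -0.79 on the Cy5-KO array and -0.64 on the Cy3-KO array, a mean of -0.71 ± 0.10, or 61.0% of the WT level. On the Cy5-KO array the 10 spots ran from -0.95 to -0.70, with a median of -0.78 and an SD of 0.07. On the Cy3-KO array they ran from -0.71 to -0.56, with a median of -0.65 and an SD of 0.05. All spots were thus below 0 on both arrays, but the spots are repeats within an array and no separate samples.

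**Figure D2:**
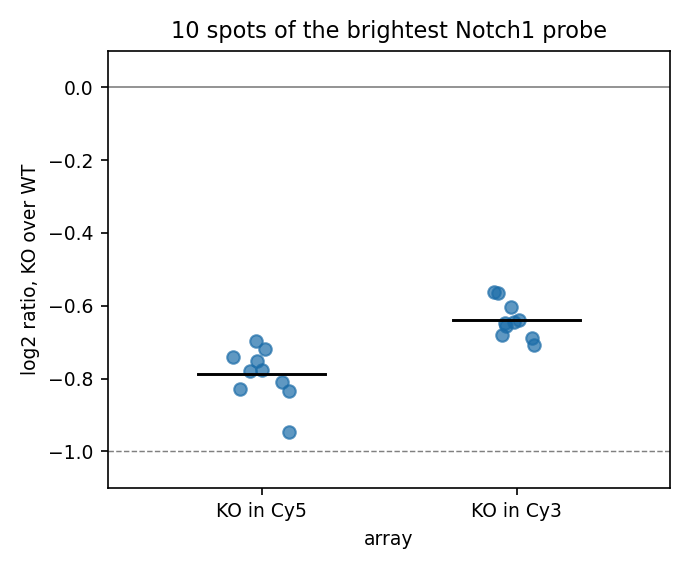
The log2 ratio of KO over WT (y axis) is plotted for each of the 10 spots of the brightest Notch1 probe on each array (x axis), with the mean of the spots as a black line and a dashed line at 2-fold. The spots run from -0.95 to -0.70 on the Cy5-KO array and from -0.71 to -0.56 on the Cy3-KO array, so all lie below 0 and above the 2-fold line.

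The other Notch1 probe starts where the brighter one ends, at 26281319, shares 1 base with it and gave -0.57 (-0.54 on the Cy5-KO array and -0.60 on the Cy3-KO array). These ratios of dim probes depended on how background was handled. With Feature Extraction's own ratio the probes gave -1.31 and -1.33, and 40.3% of the WT level for the brighter, which passed 2-fold on both arrays (-1.46 and -1.16). The offset of 50 units added here draws dim ratios towards 0 by its construction. The order of Notch1 and Notch3 turned with this choice: their values on single arrays did not overlap with the offset, and overlapped without it (-1.06 and -1.25 for Notch3).

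Notch2 was represented by 3 probes on chromosome 3, plus strand, each lower in the KO-labelled RNA on both arrays. The brightest, at mm8 positions 98235396 to 98235455, read 3348 units in the KO-labelled RNA and 4689 in the WT-labelled RNA in Cy5, and 1384 against 1656 in Cy3. Its log2 ratio was -0.35 and -0.43, a mean of -0.39 ± 0.06, or 76.3% of the WT level. The other probes, starting at 98234325 and 98232687, gave -0.25 (-0.15 on the Cy5-KO array and -0.34 on the Cy3-KO array) and -0.11 (-0.14 and -0.08). By Feature Extraction's ratio the 3 probes stood at -0.40, -0.52 and -0.45. The mean of -0.39 exceeded in size the SD of a single array, 0.143 for probes of its brightness. Its percentile among genes was 16.5.

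Notch4, the endothelial receptor, was close to background. Its probe on chromosome 17, mm8 positions 34196231 to 34196290, plus strand, read 49.9 units in the KO-labelled RNA and 68.4 in the WT-labelled RNA in Cy5, and 39.1 against 45.6 in Cy3. Both arrays flagged it as well above background in the WT-labelled sample and neither did in the KO-labelled one. The KO value is only a bound, and the WT level was 1.09-fold above it. That fold equals the fitted ratio of both arrays and is no firm minimum. The log2 ratio was -0.12 (-0.10 and -0.14), and Feature Extraction's ratio was -1.18 (-1.24 and -1.12). The size of the difference is therefore not settled by these data.

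Of the ligands, Jag1 was the one measured clearly above background, and it was higher in the KO-labelled RNA. Its brighter probe lies on chromosome 2, mm8 positions 136773138 to 136773197, minus strand. It read 14118 units in the KO-labelled RNA and 7269 in the WT-labelled RNA in Cy5, and 4948 against 2520 in Cy3. The KO-labelled RNA was the brighter in both dyes. The log2 ratio was 1.01 on the Cy5-KO array and 0.79 on the Cy3-KO array, a mean of 0.90 ± 0.15, or 187% of the WT level, at percentile 96.2 among genes. Only the Cy5-KO array passed 2-fold. A dim probe 1449 bases away, starting at 136774647, gave 0.35 (0.42 and 0.28). By Feature Extraction's ratio the 2 probes stood at 0.93 and 0.92.

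**Figure D3:**
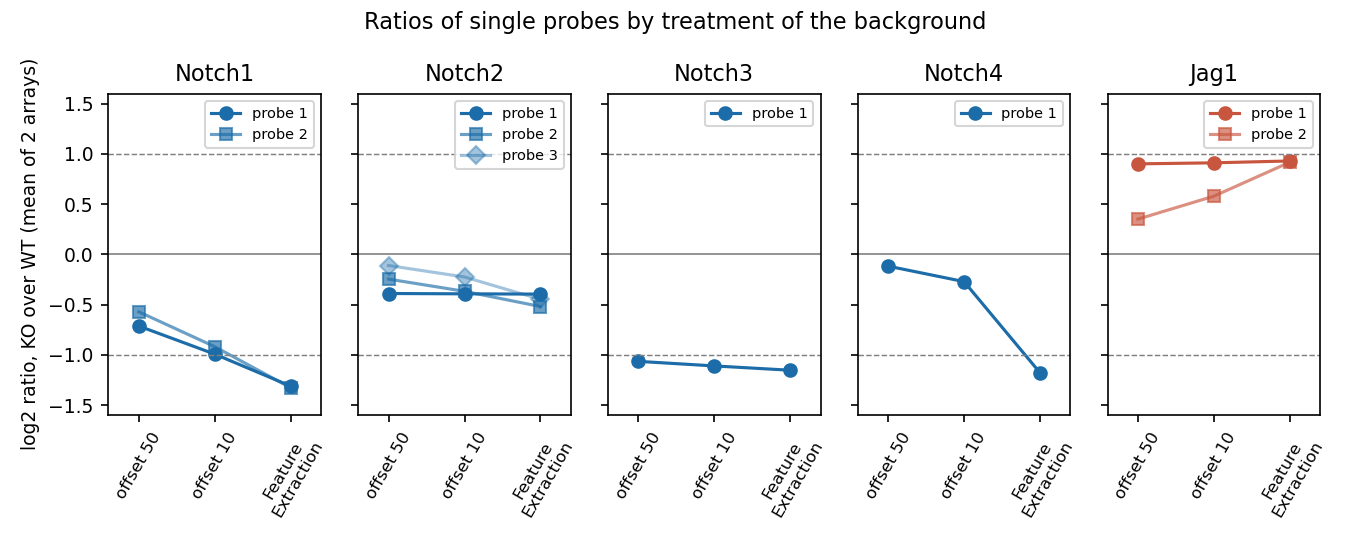
The mean log2 ratio of KO over WT (y axis) is plotted for each probe of Notch1, Notch2, Notch3, Notch4 and Jag1 under 3 treatments of the background (x axis): normexp with an offset of 50, normexp with an offset of 10, and Feature Extraction's own ratio. The bright probes of Notch3 and Jag1 change little, while Notch1 goes from -0.71 to -1.31, Notch4 from -0.12 to -1.18 and the dim Jag1 probe from 0.35 to 0.92.

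The remaining ligands gave no fold. Jag2, a Jagged ligand, has a probe on chromosome 12 (mm8 positions 113356484 to 113356543, minus strand) that read 45.5 units in Cy5 and 36.5 in Cy3 for the KO-labelled RNA, and 39.4 and 39.9 for the WT-labelled RNA. Dll1, a Delta-like ligand, has a probe on chromosome 17 (15072622 to 15072681, minus strand), spotted 10 times, whose usable spots numbered 10 on the Cy5-KO array and 9 on the Cy3-KO array. It read between 40.7 and 55.1 units, and its spots ran from -0.20 to 0.26 and from -0.19 to 0.19, on both sides of 0. Dll4, the endothelial Delta-like ligand, has a probe on chromosome 2 (119026484 to 119026543, plus strand) that read between 37.5 and 51.2 units. None of the 3 was well above background in either RNA, so a difference was not detectable by these probes.

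The target genes were both well above background and differed little. Hey1, a repressor induced by Notch, has a probe on chromosome 3 at mm8 positions 8646505 to 8646564, minus strand. It read 1427 units in the KO-labelled RNA and 1164 in the WT-labelled RNA in Cy5, and 657 against 478 in Cy3. Its log2 ratio was 0.29 and 0.45, a mean of 0.37 ± 0.11, or 129% of the WT level, at percentile 84.0. Hes1, a repressor that also answers to other pathways, has a probe on chromosome 16 whose mm8 coordinates span 296 bases, 29985644 to 29985939, plus strand. It read 761 units in the KO-labelled RNA and 683 in the WT-labelled RNA in Cy5, and 337 against 306 in Cy3. Its log2 ratio was 0.13 and 0.22, a mean of 0.17 ± 0.07, or 113% of the WT level, at percentile 71.2. The mean for Hes1 exceeded by little the SD of a single array, 0.144 for probes of its brightness. On each array the value of Hey1 was above that of Hes1.

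**Figure D4:**
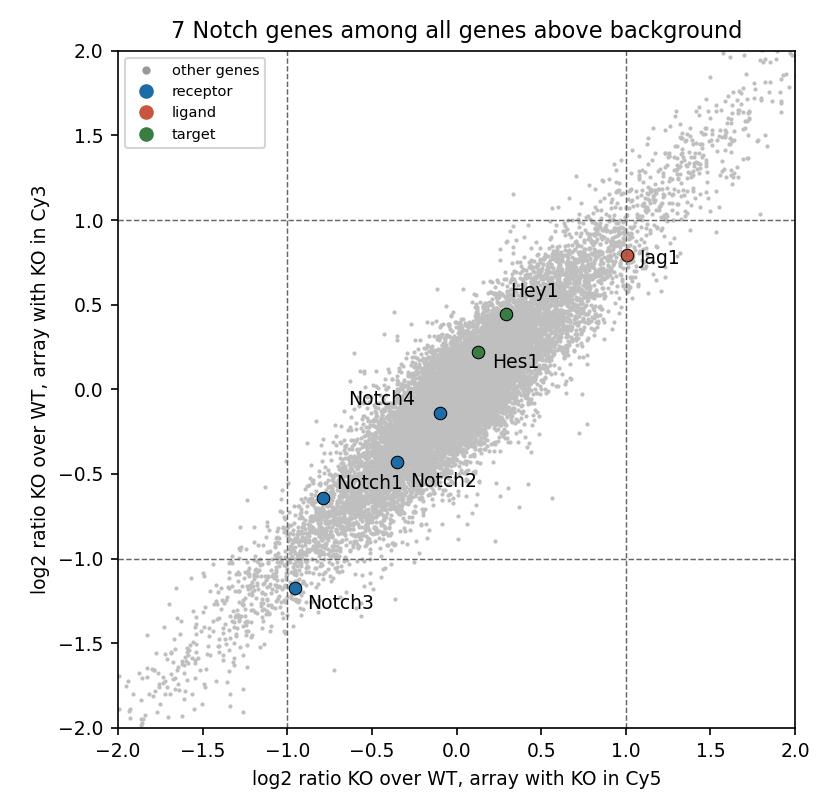
The log2 ratio of KO over WT on the Cy3-KO array (y axis) is plotted against that on the Cy5-KO array (x axis) for the genes well above background in at least 1 RNA (grey, brightest probe of each, ratios beyond 2 in size not drawn), with the 7 Notch genes coloured by role and dashed lines at 2-fold. Notch3 and Jag1 each cross the 2-fold line on 1 array only, and Hes1, Hey1, Notch2 and Notch4 lie within the main cloud.

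A gene was called when its brightest probe differed at least 2-fold one way on both arrays and stood well above background in the RNA it was higher in. No member was called, of the 7 that were above background, where 2.95% of 15877 genes were called higher and 2.61% lower. At 1.5-fold, a threshold chosen after the values were seen, Jag1 was higher and Notch1 and Notch3 were lower, where 7.04% of genes were higher and 7.17% lower. With median centring of the arrays in place of loess none of the 3 reached 1.5-fold on both arrays, and with the mean over a gene's probes Jag1 did not. The means over both arrays moved little under median centring, to 0.97 for Jag1, -0.76 for Notch1 and -1.05 for Notch3. By Feature Extraction's ratio at 2-fold, Notch1, Notch3 and Notch4 were lower and none was higher, where 5.45% of genes were lower and 5.93% higher. With so few members these counts are a description. The median ratio was -0.06 over the 10 members and -0.12 over the 7 above background, and that of all genes above background was -0.004. The median of the 4 receptors was -0.55, with Notch4 entered at its fitted value, and -1.17 by Feature Extraction's ratio.

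The other genes of the pathway, 54 listed by role, showed no common direction. Of these, 51 had a probe and 41 exceeded background clearly in 1 or both RNAs, and none was called at 2-fold in either direction. Of the 41, 22 had a ratio above 0 and 19 below, with a median of 0.03. At 1.5-fold 2 were higher, Dtx4 and Hey2, and 2 lower, Aph1a and Hdac1, where 7.04% of all genes above background were higher and 7.17% lower. By Feature Extraction's ratio at 2-fold Dtx4 and Hey2 were higher and Heyl was lower, where 5.93% of those genes were higher and 5.45% lower. These counts do not set the pathway apart from the other genes. Hey2 and Heyl are named outside the rule for named genes, after their values were seen.

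Among genes that act on the receptor, the proteolytic machinery split. Psen2, a catalytic subunit of γ-secretase, had a log2 ratio of 0.49 (0.54 on the Cy5-KO array and 0.45 on the Cy3-KO array). Adam17, a protease able to cut the receptor ectodomain, gave 0.48 (0.44 and 0.53). Aph1a, a further subunit of γ-secretase, gave -0.83 (-0.86 and -0.80), and its other probe gave -0.48. Furin, which processes the receptor on its way to the membrane, gave -0.34 (-0.42 and -0.25), while its other probe gave 0.06. Of the 9 cleavage genes above background, 6 were above 0 and 3 below. Dtx4, a Deltex ubiquitin ligase, gave 0.92 (0.96 and 0.87) by its brightest probe, while the lowest of its 3 probes gave -0.14. Mib1, the ligase that promotes ligand endocytosis, gave -0.37 (-0.35 and -0.39), and the highest of its 3 probes gave 0.17.

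Of the nuclear genes, Rbpj, the DNA-binding partner of all Notch receptors, gave -0.64 (-0.79 on the Cy5-KO array and -0.50 on the Cy3-KO array), or 64.1% of the WT level. Hdac1, a histone deacetylase of corepressor complexes, gave -0.90 (-0.996 and -0.803). Tle1, a Groucho corepressor, gave 0.43 (0.32 and 0.54), and the lowest of its 3 probes gave 0.09. Hey2, a relative of Hey1, was well above background in the KO-labelled RNA on both arrays and not in the WT-labelled RNA. Its log2 ratio was 0.79 (0.75 and 0.83). The fold of the KO level over the WT bound, 1.73, was in effect this fitted ratio and no firm minimum. Feature Extraction's ratio for Hey2 was 3.12 (2.92 and 3.32), so the size of its difference is not settled by these data. The brighter Heyl probe was well above background in the WT-labelled RNA only, with a log2 ratio of -0.16 (-0.04 and -0.28). Its fold of the WT level over the KO bound, 1.12, was again in effect the fitted ratio. Feature Extraction's ratio for this probe was -1.78 (-1.08 and -2.475), so the size is not settled here either. The log2 ratio of the other Heyl probe was 0.12. Of the other Hes genes above background in both RNAs, Hes6 gave 0.38 (0.30 and 0.46), and its other probe gave 0.23. Hes2 gave -0.02 (0.05 and -0.09). Both were named after their values were seen. Hes3, Hes5, Hes7 and Nrarp did not exceed background clearly in either.

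**Figure D5:**
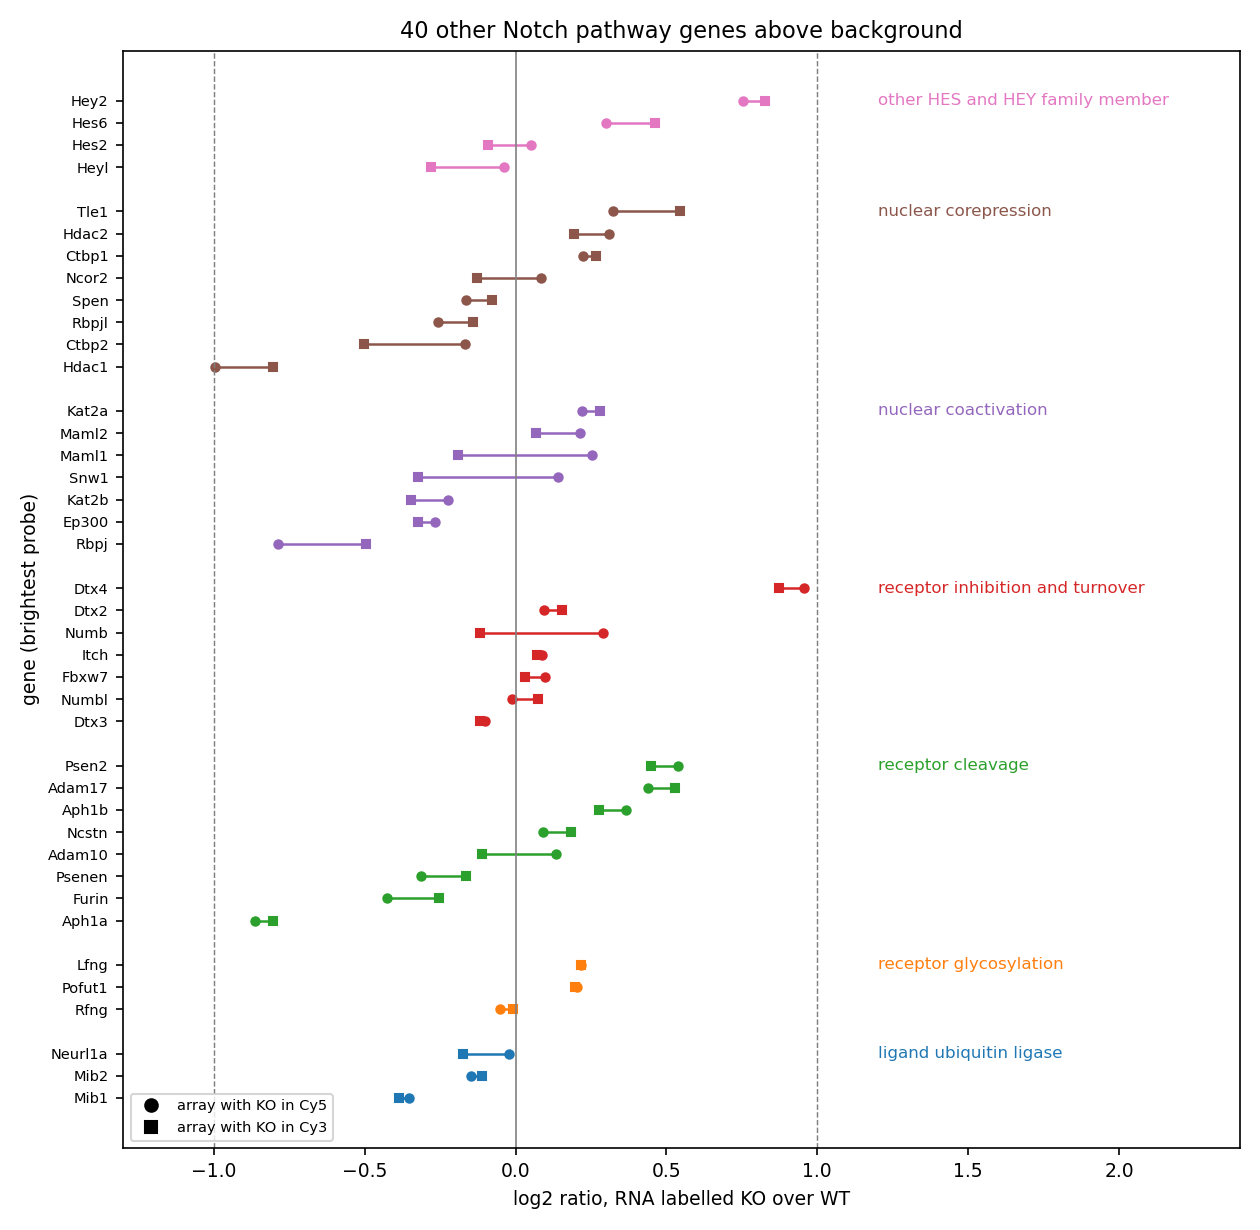
The log2 ratio of KO over WT (x axis) on each array is plotted for 40 of the other pathway genes well above background in at least 1 RNA (y axis, brightest probe of each), grouped and coloured by role, with a line joining the arrays and dashed lines at 2-fold. The values lie on both sides of 0, from -0.90 for Hdac1 to 0.92 for Dtx4, and no gene drawn passes 2-fold on both arrays.

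Markers of cell types were read beside these values. The summed level of the 12 fibroblast markers was 168392 to 170110 in the KO-labelled RNA and 205676 to 225848 in the WT-labelled RNA, and 9 of the 12 ratios were below 0, with a median of -0.43 and a range from -0.89 for Vim to 0.89 for Fn1. The 8 mural markers, of smooth muscle and pericytes, of which Des was not above background, summed to 55303 to 56153 in the KO-labelled RNA and 47353 to 49042 in the WT-labelled RNA, and 4 of their 8 ratios were below 0, with a median of 0.05. Their genes were divided, with Cnn1 at -2.11, Cspg4 at -0.78, Myh11 at -0.46, Acta2 at 0.79 and Mcam at 0.61. The 3 probes of Acta2 were divided as well, from -0.64 to 0.93. Of 10 endothelial markers 9 had a probe and 2 were above background, and their sum was 764 to 794 against 822 to 891 units. Of 6 markers each, 2 epithelial, 2 haematopoietic and 4 neural ones were above background, with sums of 430 to 455 against 447 to 459, 430 to 472 against 425 to 469, and 1425 to 1466 against 1521 to 1569. All these sums hold the offset of 50 units for each marker, also for markers not above background. The offset weighs heavily in the endothelial, epithelial and haematopoietic sums, which are therefore no measure of expression alone. The part of cell composition in the Notch ratios was not tested.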

How the data were processed

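Total RNA of LATS2-/- and LATS2+/+ mouse embryonic fibroblasts was measured on 2 two-colour arrays on 1 slide in 1 scan, with the dyes exchanged. Per the file headers, spots were read with Agilent Feature Extraction 10.5.1.1, and the intensity of each spot (its mean signal) and of its local background (a median) was deposited. The deposited files also hold Feature Extraction's log10 ratio of Cy5 over Cy3. The authors deposited a log2 ratio per probe as well, which matched the log2 ratio of KO over WT from the processed signals (r of 0.999867 and 0.999597 across probes).

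Intensities were corrected in limma 3.58.1 under R 4.3.3 (normexp, offset 50) and normalised by loess within each array. Control spots (1639 of 45018) and flagged spots (390 and 378) were left out. Spots of a probe were averaged, and the sign of the array with KO in Cy3 was turned. A probe counted as above background where Feature Extraction flagged a share of 0.5 or more of its spots as such on both arrays. The brightest probe stood for a gene. A bound was the brighter RNA's level against the higher of the dim probe's own level and the lowest level well above background, per array after Aquantile between arrays. The threshold of 2-fold was taken from the methods of the study. Probe coordinates are those of the files, on mm8, and the place of probes within exons was not analysed here. Python 3.11.15, pandas 2.3.3 and numpy 2.4.6 handled the tables, and matplotlib 3.10.9 the plots. Normalisation and calls were tested on simulated data, with changes planted in brighter probes only. Changes in dim probes such as those of Notch1 and Notch4 were not covered.

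The members and lists were chosen with earlier results of these data known. All member probes and all Lats2 probes are named, and of the other pathway genes those called and the 5 highest and 5 lowest above background in both RNAs. A gene that meets this rule is not reported here. Other genes named were picked after their values were seen. The alternatives tried were median centring, an offset of 10, no background subtraction, Feature Extraction's ratio, the deposited table, keeping flagged spots, each array alone, the mean over probes, limma's test and the methods' t-test.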

Additional observations from a re-analysis of the deposited data

How the results depend on the processing

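No paired analysis was possible because the arrays hold a single replicate of either genotype. No member above background changed sign under the 9 alternatives run on each of the 7. Of 63 recomputed ratios, 54 moved by less than the SD between arrays and 9 by more, 7 of them to a larger size. Some of the 63 could not move: the mean over probes is the same value for Notch3, Notch4, Hes1 and Hey1, which have a single probe each. The deposited table nearly repeats Feature Extraction's ratio, and each array alone is part of the averaged value. The count of 54 is therefore no measure of robustness. At 2-fold, where no member was called, 1 was lower with an offset of 10 and by limma's test after Benjamini-Hochberg adjustment. That test took the 2 arrays as replicates, so it measures hybridisation and dye error only and no spread between cultures or animals. By the deposited table and by the ratio of Feature Extraction, 3 were lower. Taking each array alone gave 0 to 1 higher (Jag1) and 0 to 1 lower (Notch3). The 1.5-fold calls, added after the values were seen, were lost with median centring (0 higher, 0 lower), and Jag1 was also lost with the mean over probes (0 higher). The other pathway genes gave 1 higher with an offset of 10, and 2 higher and 1 lower by the deposited table and by the ratio of Feature Extraction. Over all probes, 599 were higher and 503 lower. Median centring gave 321 and 169, and both the deposited table and the ratio of Feature Extraction gave 1280 and 1220. The methods' t-test gave 0 and 0 after Benjamini-Hochberg adjustment, against 524 and 443 unadjusted. It was run here on only the 2 arrays of 1 pair of RNAs, so these counts do not bear on the study's own calls. Signal over background limits Notch1, Notch4 and the 3 undetected ligands, whose ratios follow the treatment of the background.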
